A study of Mus musculus with 7 samples.

Results

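The 42 genes described here are the ligands, receptors, SMAD proteins, antagonists and immediate targets of the BMP and TGF-beta pathways. They were chosen by name from a fixed list, among 21631 protein-coding genes of chromosomes 1 to 19 and X. The list was set with earlier results of these data known. For each gene the accessible chromatin regions nearest to it were counted in cells of the developing mouse gut. The ATAC-seq peaks of 7 libraries were merged into 326695 regions, a region being a stretch covered by overlapping peaks of 1 or more libraries. Of these, 264687 had a protein-coding gene body within 100 kb, and 1122 of those had a member as their nearest gene. All 42 members had at least 3 regions.

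The study used ATAC-seq, in which a transposase cuts open chromatin, to compare parts of the gastrointestinal tract at a pair of embryonic stages and after loss of the transcription factor Sox2. There was 1 library for each of 7 groups: stomach and intestine at E13, forestomach, hindstomach, intestine and colon at E16, and stomach of Sox2 KO embryos at E16. The protocols give the ages as E13.5 and E16.5 and the animals as ShhCre; R26YFP/+ embryos, in which Cre from the Shh locus switches on a yellow fluorescent reporter in gut epithelium and all that descends from it. At E13 the organs were dispersed with trypsin, live cells were sorted, and 50000 cells pooled from 3 to 4 reporter-positive embryos entered the assay. At E16 the forestomach epithelium was peeled off after dispase and dispersed with collagenase, the hindstomach epithelium was shaken off in 10 mM EDTA, and the epithelium of the proximal small intestine and of the colon in 5 mM EDTA. The sources used here do not give the genotype of the Sox2 KO embryos, the part of stomach taken or the way its cells were isolated. Stage therefore cannot be told apart from the way cells were isolated. The same holds for forestomach against hindstomach and for hindstomach against E16 intestine. For pairs with the Sox2 KO stomach the isolation is unknown, so it cannot be told apart there either. With 1 library a group, no difference below has a replicate check. Each interval printed is a 95% Wilson interval and reflects counting error alone. In bulk chromatin, a region open in few cells and one weakly open in many cannot be told apart.

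BMP and TGF-beta ligands are secreted dimers that bind pairs of type I and type II receptor kinases on the cell surface. The type I receptor then phosphorylates receptor SMADs, SMAD1, SMAD5 and SMAD9 for most BMPs and SMAD2 and SMAD3 for TGF-beta and activin, which enter the nucleus with SMAD4. In the developing gut these ligands are exchanged between epithelium and mesenchyme. BMP signalling takes part in patterning of the stomach and in the maturation of the intestinal villi, and secreted antagonists such as noggin and gremlin limit where it acts. The Id genes are direct targets of BMP SMADs in many cell types.

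Sequence is shown first for the starts of members whose peaks bear on what follows: Id2 and Id3, targets with a peak at the start in all 7 libraries, and 5 members with one in some libraries but not in all. The lines give the 250 bases before the start, 5′ to 3′ on the gene's strand, from RefSeq on GRCm38.p6, at chr12:25096093-25096342 (minus strand) for Id2, chr4:136143572-136143821 (plus) for Id3, chr3:141982265-141982514 (minus) for 1 of the 3 listed starts of Bmpr1b, which lies inside the gene body, chr9:64022060-64022309 (minus) for Smad6, chr9:75775115-75775364 (plus) for Bmp5, chr2:58566829-58567078 (minus) for Acvr1 and chr15:101173822-101174071 (plus) for Acvr1b. Capitals mark letters that SMAD complexes are known to recognise on either strand: CAGAC or GTCTG, the SMAD box, and GGCGCC and GGAGCC or GGCTCC, the GC-rich elements of BMP SMADs; matches may share end bases. Id1 is named only.
Id2: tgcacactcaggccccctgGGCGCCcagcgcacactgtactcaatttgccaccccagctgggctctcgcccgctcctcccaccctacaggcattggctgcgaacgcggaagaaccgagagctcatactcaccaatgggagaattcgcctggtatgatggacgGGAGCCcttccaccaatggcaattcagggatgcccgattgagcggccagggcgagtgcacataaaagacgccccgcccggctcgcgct
Id3: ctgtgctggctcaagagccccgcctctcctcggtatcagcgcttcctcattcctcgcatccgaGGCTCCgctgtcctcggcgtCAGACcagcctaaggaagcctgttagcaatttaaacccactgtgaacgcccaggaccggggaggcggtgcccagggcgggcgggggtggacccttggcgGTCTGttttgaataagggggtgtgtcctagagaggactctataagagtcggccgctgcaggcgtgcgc
Bmpr1b: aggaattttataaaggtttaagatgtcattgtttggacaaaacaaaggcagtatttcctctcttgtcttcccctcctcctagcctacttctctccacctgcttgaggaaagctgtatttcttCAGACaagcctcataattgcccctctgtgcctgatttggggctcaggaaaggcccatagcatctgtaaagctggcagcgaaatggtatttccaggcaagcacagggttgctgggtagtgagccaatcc
Smad6: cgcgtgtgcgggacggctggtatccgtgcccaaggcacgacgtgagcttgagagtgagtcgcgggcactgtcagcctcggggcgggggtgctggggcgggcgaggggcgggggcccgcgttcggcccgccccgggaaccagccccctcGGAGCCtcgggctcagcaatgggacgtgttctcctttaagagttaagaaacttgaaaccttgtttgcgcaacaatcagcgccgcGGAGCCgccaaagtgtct
Bmp5: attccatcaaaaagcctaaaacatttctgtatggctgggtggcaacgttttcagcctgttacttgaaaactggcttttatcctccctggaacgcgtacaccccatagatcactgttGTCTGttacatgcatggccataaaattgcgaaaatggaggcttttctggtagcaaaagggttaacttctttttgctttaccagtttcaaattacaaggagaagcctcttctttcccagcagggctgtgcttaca
Acvr1: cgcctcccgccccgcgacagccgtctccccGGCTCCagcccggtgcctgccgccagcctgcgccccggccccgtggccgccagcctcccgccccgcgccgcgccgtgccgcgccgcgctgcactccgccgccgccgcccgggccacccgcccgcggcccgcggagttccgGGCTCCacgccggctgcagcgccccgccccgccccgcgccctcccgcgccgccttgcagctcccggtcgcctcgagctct
Acvr1b: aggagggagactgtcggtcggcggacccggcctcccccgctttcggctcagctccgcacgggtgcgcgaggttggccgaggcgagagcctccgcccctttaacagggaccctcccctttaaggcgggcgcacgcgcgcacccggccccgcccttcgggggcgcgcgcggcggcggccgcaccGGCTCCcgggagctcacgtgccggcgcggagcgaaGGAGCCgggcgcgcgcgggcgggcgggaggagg

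Counts over libraries follow one order throughout: E13 stomach, E13 intestine, E16 forestomach, E16 hindstomach, E16 intestine, E16 colon and Sox2 KO stomach. Peaks covered these 250 bases to different extents. At Id2 they covered 250, 230, 219, 192, 220, 202 and 250 bases, so all or most of the stretch in every library. At Acvr1b, a type I activin receptor, they covered 219, 250, 76, 100, 0, 97 and 250 bases, so E16 intestine alone had none. At Smad6, an inhibitory SMAD, they covered 163, 108, 95, 76, 125, 0 and 250 bases, so colon alone had none. At Acvr1, a type I BMP receptor, and at Bmp5 only E13 stomach (57 and 26 bases) and the Sox2 KO stomach (250 and 67 bases) had a peak there.

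Over the 27 members with an entry in the promoter table, CAGAC was present in the 300-base windows (250 bases before to 50 after the start) of 12 members (44.4%), against 52.3% of 17274 genes. GGCGCC was present at 10 members (37.0%) against 17.6% of genes, and GGAGCC at 17 (63.0%) against 38.2%. The member windows were also richer in G and C, with a median of 66.7% against 56.7%, and held a median of 27.5 CpG against 13. Whether base composition accounts for the motif shares was not tested, and a match describes letters only.

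The deposited lists held between 81179 and 135743 peaks on these chromosomes, fewest in E13 intestine and most in colon, and their sequencing depth is unknown. A longer list gives more regions, so most counts below are read against all genes and against lists cut to the 81179 widest peaks. The labelled epithelium was checked on gene ends (within 1 kb): epithelial markers had a peak at 10 to 12 of 12 genes in every library. These 12 genes held 149 regions in the Sox2 KO library against 86 to 118 elsewhere. Over all genes, too, that library most often had a gene-end peak (68.6%, against 54.6% to 65.2% elsewhere). Mesenchymal markers had one at 7 of 12 genes in both E13 libraries, at 1 to 5 in the wild-type E16 libraries and at 9 in the Sox2 KO library, where the 12 genes held 82 regions against 45 to 72 elsewhere; Twist1 had none in hindstomach and E16 intestine. Blood and immune markers had a gene-end peak at 1 to 3 of 8 genes, endothelial ones at 1 to 3 of 6 and neural ones at 3 to 5 of 6. The Sox2 gene body of 2467 bases had 64 bases under peaks in the Sox2 KO library, 94 to 219 in the other stomach libraries and 0 in intestine and colon; which bases were deleted is not known here, so this does not check the label.

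Members were rich in regions. Their median was 24.5 regions a gene against 6 over all genes, and their median gene body was 39.5 kb against 17.3 kb. Bmpr1b, a type I BMP receptor with a gene body of 332.5 kb, had the most (72), followed by Tgfbr3 (63), Smad3 (60), Smad6 (54) and Tgfbr2 (50). Gdf11 had the fewest (3), followed by Gdf5 (5) and by Bmp1, Tgfb1 and Tgfb3 with 7 each. Of the 1122 regions 59 (5.26%) had a peak in all 7 libraries and 574 (51.2%) in a single one, close to the 5.26% and 53.4% over all genes. Member regions lay more often outside the gene: 43.8% touched the gene body against 58.4% of all gene regions, 7.75% lay at a gene end against 10.3%, and those outside were a median of 28.6 kb away against 20.6 kb.

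**Figure D1:**
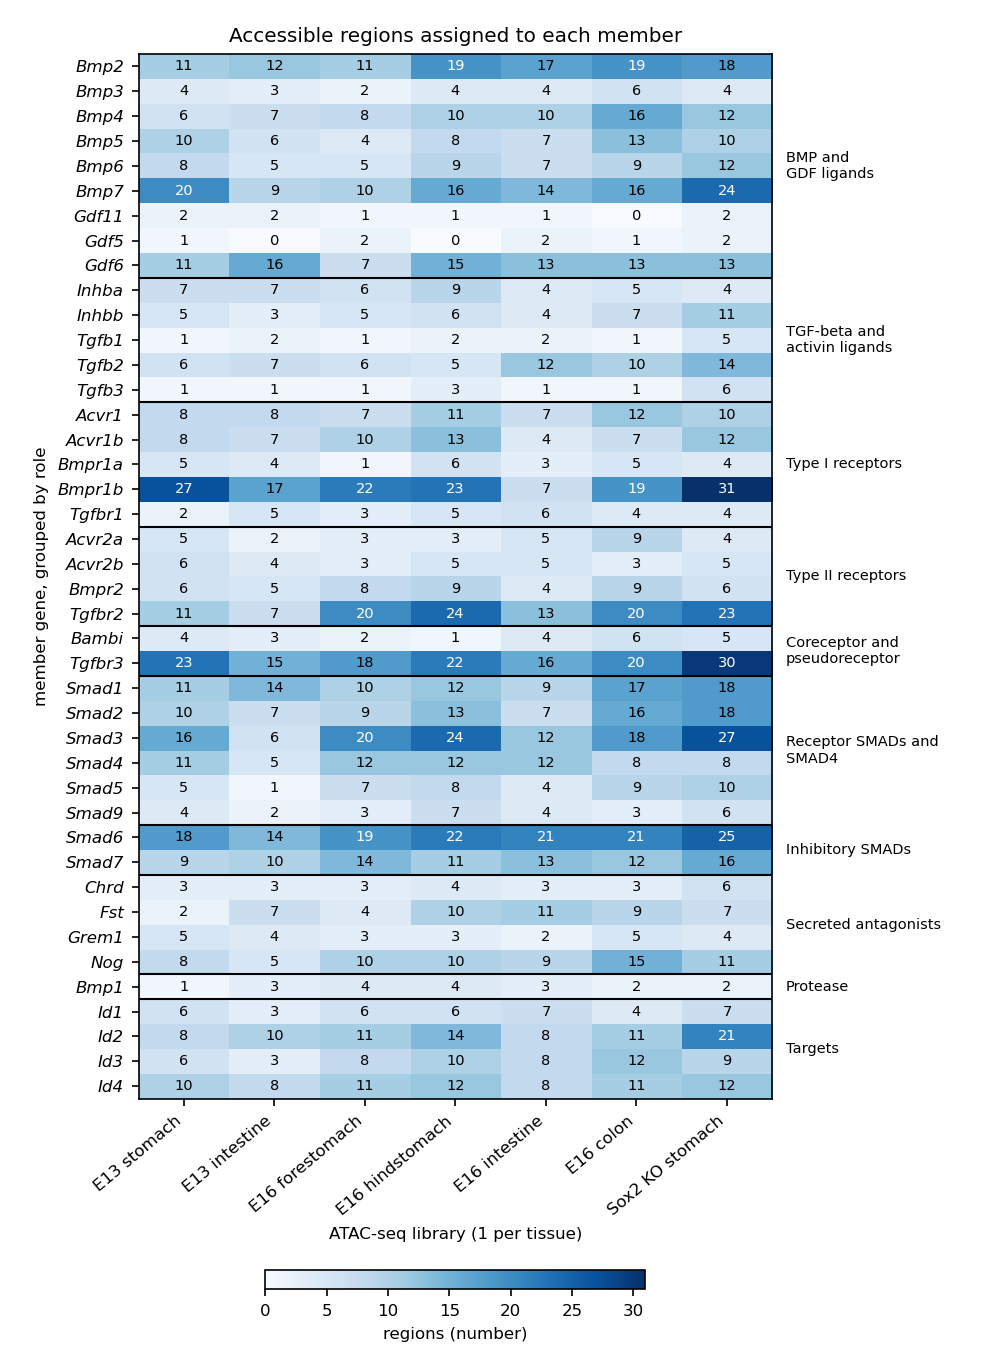
Number of accessible regions at each of the 42 members (rows, grouped by role) in each of the 7 libraries (columns); each cell prints the count and darker blue marks more regions. Bmpr1b runs from 7 regions in E16 intestine to 31 in the Sox2 KO stomach, and Tgfb3 holds 6 in the Sox2 KO stomach against 1 to 3 elsewhere.

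Among the BMP and GDF ligands, Bmp7 held 20, 9, 10, 16, 14, 16 and 24 regions, high in E13 stomach and in the Sox2 KO stomach and lowest in E13 intestine. Bmp2 held 11, 12, 11, 19, 17, 19 and 18, lower in both E13 libraries and in forestomach than in the others. Bmp4, a BMP known from gut mesenchyme, held 6, 7, 8, 10, 10, 16 and 12. Its only region with a peak in all 7 libraries, chr14:46387232-46387660, lay inside the gene body. Gdf6 ran the other way from Bmp7 at E13, with 11, 16, 7, 15, 13, 13 and 13 regions. Bmp5 held 10, 6, 4, 8, 7, 13 and 10 regions, and Bmp6 8, 5, 5, 9, 7, 9 and 12. Bmp3, a BMP that antagonises others, held 4, 3, 2, 4, 4, 6 and 4. Gdf11, a ligand that acts through activin receptors, held 2, 2, 1, 1, 1, 0 and 2, and Gdf5 held 1, 0, 2, 0, 2, 1 and 2, too few to rank libraries. Bmp1 is not a ligand but the protease that trims procollagens and frees BMPs from chordin, and it held 1, 3, 4, 4, 3, 2 and 2 regions.

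The TGF-beta and activin ligands had their highest count in the Sox2 KO stomach at 4 of 5 genes. This was not particular to them, since that library held the most member regions (478, with hindstomach next at 411). Its count was also the highest at Bmp6, Bmp7, Bmpr1b, Tgfbr3, Chrd, Id2 and all SMAD genes but Smad4 and Smad9. The share of all genes with their highest count there was not computed. Tgfb3 held 1, 1, 1, 3, 1, 1 and 6 regions and Tgfb1 1, 2, 1, 2, 2, 1 and 5. Inhbb, which encodes the activin B subunit, held 5, 3, 5, 6, 4, 7 and 11. Tgfb2 held 6, 7, 6, 5, 12, 10 and 14, so E16 intestine and colon were also above the other wild-type libraries. Inhba, the activin A subunit, was the exception with 7, 7, 6, 9, 4, 5 and 4 regions, low in the Sox2 KO stomach, E16 intestine and colon.

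Of the type I receptors, Bmpr1b held 27, 17, 22, 23, 7, 19 and 31 regions, with E16 intestine far below every other library. Acvr1b showed the same low E16 intestine, with 8, 7, 10, 13, 4, 7 and 12. Bmpr1a, another type I BMP receptor, held 5, 4, 1, 6, 3, 5 and 4, lowest in forestomach. Acvr1 held 8, 8, 7, 11, 7, 12 and 10, and Tgfbr1, the type I TGF-beta receptor, 2, 5, 3, 5, 6, 4 and 4. Among type II receptors Tgfbr2, which binds TGF-beta, held 11, 7, 20, 24, 13, 20 and 23, so both E13 libraries were lowest. Bmpr2 held 6, 5, 8, 9, 4, 9 and 6, and the activin receptors Acvr2a and Acvr2b held 5, 2, 3, 3, 5, 9 and 4, and 6, 4, 3, 5, 5, 3 and 5. The coreceptor Tgfbr3, also called betaglycan, held 23, 15, 18, 22, 16, 20 and 30. Bambi, a receptor-like protein without a kinase that dampens the signal, held 4, 3, 2, 1, 4, 6 and 5, fewest in the stomach parts at E16.

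Among the SMADs, Smad3 held 16, 6, 20, 24, 12, 18 and 27 regions, with stomach above intestine at each stage. Smad5 held 5, 1, 7, 8, 4, 9 and 10 and Smad9 4, 2, 3, 7, 4, 3 and 6, also fewer in intestine than in stomach at E13. Smad1 differed, with 11, 14, 10, 12, 9, 17 and 18, and was above stomach in E13 intestine. Smad2 held 10, 7, 9, 13, 7, 16 and 18. Smad4, the partner of all receptor SMADs, held 11, 5, 12, 12, 12, 8 and 8, and was low in E13 intestine, colon and the Sox2 KO stomach. The inhibitory SMADs varied less over E16 tissues: Smad6, which mainly restrains BMP signals, held 18, 14, 19, 22, 21, 21 and 25, and Smad7, which restrains both branches, 9, 10, 14, 11, 13, 12 and 16.

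The secreted antagonists had no region with a peak in all 7 libraries among 84, where 5.26% of all gene regions had one. Nog (noggin) held 8, 5, 10, 10, 9, 15 and 11 regions and Fst (follistatin, which binds activin) 2, 7, 4, 10, 11, 9 and 7, fewest in E13 stomach. Grem1 held 5, 4, 3, 3, 2, 5 and 4. Chrd (chordin) held 3 or 4 in every wild-type library and 6 in the Sox2 KO stomach. The Id genes are small proteins that block basic helix-loop-helix factors. Id2 held 8, 10, 11, 14, 8, 11 and 21 regions, Id1 6, 3, 6, 6, 7, 4 and 7, Id3 6, 3, 8, 10, 8, 12 and 9, and Id4 10, 8, 11, 12, 8, 11 and 12. Id2 had the widest range of these, with the Sox2 KO stomach above all other libraries. The 4 Id genes together had 93 regions, 10 of them among the 59 member regions present in every library.

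To compare a pair of libraries, regions with a peak in only one of them were counted. A member was called towards a library that held at least 2 more unshared regions and at least 2 times as many as the other. At E13, stomach held 169 unshared member regions and intestine 100, so 62.8% (56.9 to 68.4) were in stomach, against 61.2% over all genes. Of 41 members with an unshared region, 18 were called towards stomach and 4 towards intestine, where all genes gave 27.3% and 8.0%. Among genes with at least 10 regions, a comparison added after seeing the data because members have many, 48.6% of 35 members were called towards stomach against 38.3% of genes, and 8.57% against 9.5% towards intestine.

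The E13 stomach calls included both ligands and SMADs. Bmp7 had 11 regions in stomach only, 0 in intestine only and 9 in both. Smad3 had 11, 1 and 5, Smad5 4, 0 and 1, and Smad6 4, 0 and 14. Nog had 4, 1 and 4, and Id1 and Id3 had 3, 0 and 3 each. Towards intestine were Gdf6 (2, 7 and 9), Fst (1, 6 and 1), Tgfbr1 (1, 4 and 1) and Bmp1 (0, 2 and 1). With lists of equal length the share in stomach was 55.8% (49.4 to 62.1) against 52.9% over all genes, and 11 of the 18 calls towards stomach and all 4 towards intestine remained. Of the genes named here, Id3 was the one whose call did not remain.

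The forestomach is lined by squamous and the hindstomach by glandular epithelium. Between them members had 251 regions in both parts, 69 in forestomach only and 160 in hindstomach only, a Jaccard index (shared over all regions of either) of 0.523 against 0.473. Of 39 members 22 were called towards hindstomach and 2 towards forestomach (all genes 34.1% and 4.42%; among genes with at least 10 regions, 58.8% and 2.94% of members against 47.4% and 5.55%). The hindstomach list was the longer by 113117 to 87443 peaks, and at equal length the share in forestomach moved from 30.1% (24.6 to 36.4) to 49.5%, with 49.4% over all genes, and only 8 of the 22 calls remained. Those 8 were Bmp2 (3 in forestomach only and 11 in hindstomach only), Gdf6 (1 and 9), Bmpr1a (1 and 6), Acvr1 (1 and 5), Tgfbr1 (1 and 3), Tgfbr3 (2 and 6), Smad9 (0 and 4) and Fst (2 and 8). Smad7, with 5 in forestomach only and 2 in hindstomach only, was the call towards forestomach that remained.

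In number of regions, the excess of hindstomach over E16 intestine was largest at the type I receptors and receptor SMADs. Hindstomach held 236 member regions that intestine lacked and intestine 138, so 63.1% (58.1 to 67.8) were in hindstomach against 58.9% over all genes. Type I receptors had 46 in hindstomach only and 15 in intestine only, most of the 46 at Bmpr1b and Acvr1b. Receptor SMADs with Smad4 had 47 and 19. Type II receptors had 24 and 10 and the targets 19 and 8, while the inhibitory SMADs had 16 and 17. Of 41 members 16 were called towards hindstomach and 4 towards intestine (all genes 27.1% and 9.72%; among genes with at least 10 regions, 42.9% and 8.57% of members against 35.6% and 11.9%). Bmpr1b had 19 in hindstomach only against 3, Acvr1b 10 against 1, Smad3 16 against 4, Tgfbr2 14 against 3 and Bmpr2 7 against 2, and Id2 had 9 against 3. Towards intestine were Tgfb2 (2 and 9), Acvr2a (2 and 4), Bambi (0 and 3) and Gdf5 (0 and 2). At equal list length the share was 56.4% (50.8 to 61.7) against 52.1%, with 10 of 16 and all 4 calls remaining, all of those named included.

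E16 intestine and colon shared 180 member regions, with 133 in intestine only and 227 in colon only. The intestine share was 36.9% (32.12 to 42.04), against 34.7% over all genes, and 3 of 41 members were called towards intestine and 19 towards colon (all genes 7.21% and 33.7%; among genes with at least 10 regions, 5.71% and 51.4% of members against 6.84% and 48.5%). With equal lists, whose narrowest peaks were 88 bases in intestine and 110 in colon, this balance turned to 51.1% in intestine, the same as over all genes. Of the 19 calls towards colon, 5 remained. These were Bmpr1b (3 in intestine only and 15 in colon only), Smad1 (2 and 10), Smad2 (2 and 11), Smad5 (1 and 6) and Acvr2a (1 and 5). Acvr2b (2 and 0) and Smad4 (5 and 1) remained called towards intestine, and Id1 (3 and 0) did not.

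**Figure D2:**
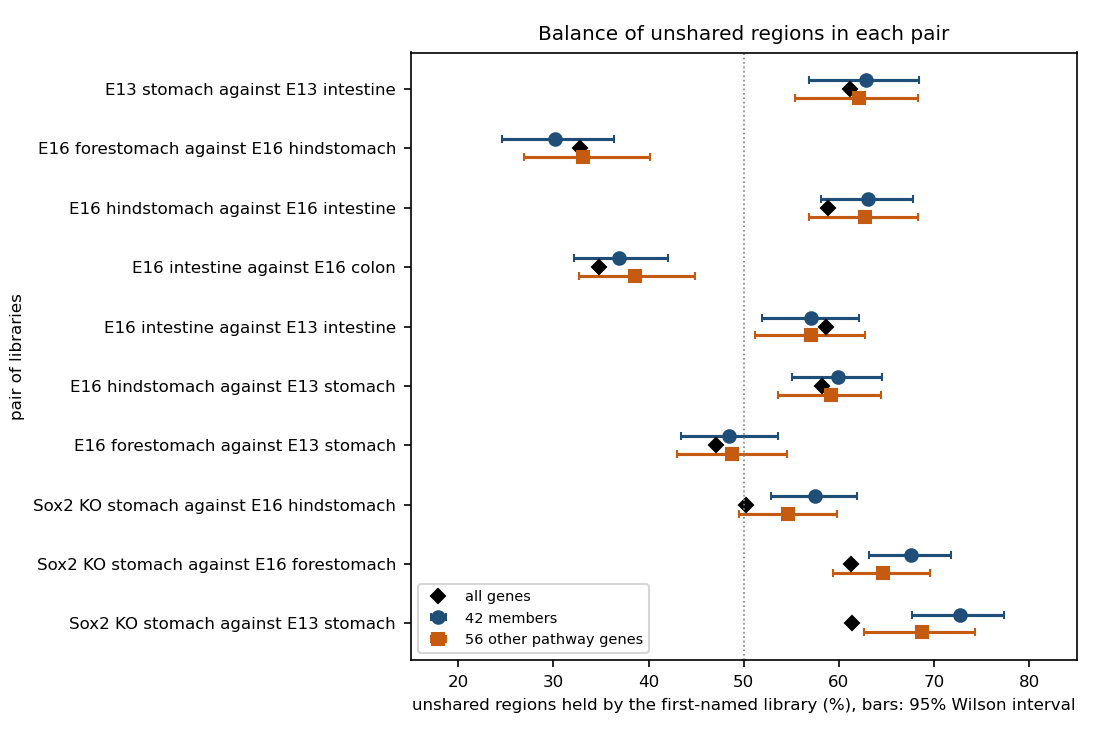
For 10 pairs of libraries, the percent of unshared regions held by the first-named library, for the 42 members (circles), 56 other pathway genes (squares) and all genes (diamonds); bars are 95% Wilson intervals and the dotted line is 50%. The member interval lies above the all-gene value in the 3 pairs with the Sox2 KO stomach (57.5%, 67.6% and 72.8%) and includes it in the other 7.

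Across stages, E16 intestine held 205 member regions not seen in E13 intestine, and E13 intestine 154 not seen at E16, with 108 in both. The E16 share of 57.1% (51.9 to 62.1) was near the 58.6% of all genes. Towards E16 intestine were 13 of 41 members and towards E13 intestine 5 (all genes 25.6% and 9.32%; among genes with at least 10 regions, 34.3% and 11.4% of members against 35.8% and 10.1%), and 11 and 5 of these remained at equal list length. The E13 excess was largest at Bmpr1b: 13 of its regions were in E13 intestine only, 3 in E16 intestine only and 4 in both. Inhba (2 at E16 only and 5 at E13 only), Acvr1b (2 and 5), Smad1 (5 and 10) and Grem1 (1 and 3) went the same way. Towards E16 intestine, Tgfbr2 had 9 against 3, Smad4 9 against 2, Smad3 7 against 1, Id3 6 against 1 and Id1 4 against 0.

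In the stomach, hindstomach held 242 member regions that E13 stomach lacked and E13 stomach 162 that hindstomach lacked, 59.9% (55.1 to 64.6) against 58.2% over all genes. Of 42 members 15 were called towards hindstomach and 3 towards E13 stomach (all genes 26.3% and 9.54%; among genes with at least 10 regions, 37.1% and 5.71% of members against 35.9% and 10.9%), of which 8 and 3 remained at equal list length. Tgfbr2 had 15 regions in hindstomach only and 2 in E13 stomach only, Fst 9 and 1, and Id3 7 and 3. Towards E13 stomach were Acvr2a (1 and 3), Bambi (0 and 3) and Grem1 (0 and 2). Forestomach against E13 stomach gave 175 and 186, 48.5% (43.4 to 53.6) against 47.1%, with 5 of 41 members called towards forestomach and 10 towards E13 stomach (all genes 13.7% and 19%; among genes with at least 10 regions, 11.4% and 22.9% of members against 17.7% and 24.0%), of which 5 and 6 remained. Tgfbr2 again had more at E16 (12 and 3), as did Smad7 (6 and 1), whereas Bmp7 (4 and 14), Bmp5 (4 and 10) and Bmpr1a (1 and 5) had more in E13 stomach. Mesenchymal marker ends were open at 7 of 12 genes in each E13 library and at 1 to 5 in the wild-type E16 libraries; their part in the differences between stages was not tested.

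At some members, neighbouring regions were open at different stages. At Id3 (chr4:136143822-136145392), 2.39 kb beyond the higher-coordinate end of the gene, the region chr4:136147785-136148084 had peaks of 287 bases in E13 stomach, 79 in E13 intestine and 295 in the Sox2 KO stomach and none in the wild-type E16 libraries. The next region, chr4:136148152-136148452 at 2.76 kb, had peaks of 277, 296, 290 and 281 bases in the forestomach, hindstomach, intestine and colon of E16 and none in the other 3 libraries. On the other side of Id3, chr4:136124332-136124793 at a distance of 19029 bases was found in hindstomach, E16 intestine and colon only, with peaks of 402, 416 and 461 bases. At Id1 (chr2:152736251-152737410) the region chr2:152726677-152727136, 9.12 kb away, had peaks in the 4 wild-type E16 libraries alone, while chr2:152724035-152724275 and chr2:152725300-152725578 had peaks in E13 stomach and the Sox2 KO stomach alone.

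Tgfb2 (chr1:186622787-186709697) showed a like arrangement near its higher-coordinate end. The region chr1:186705198-186705658 inside the gene had peaks of 418 bases in E13 stomach, 331 in E13 intestine and 456 in the Sox2 KO stomach only. Just beyond the gene end, on its upstream side, chr1:186709762-186710656 had peaks of 685 bases in E16 intestine and 878 in colon only. At Tgfb3 (chr12:86056743-86079041) the region chr12:86079308-86079686 by the gene end was present in all 7 libraries. The Sox2 KO stomach had 5 more regions in or touching the gene, 1 of them shared with hindstomach and the others in no other library. Of these, chr12:86078146-86078267, chr12:86078545-86078656 and chr12:86078977-86079099 lay within 1 kb of that same gene end. Inhbb (chr1:119415463-119422248) had the region chr1:119421555-119422145 at its end in the Sox2 KO stomach, with a peak of 590 bases, and in E13 stomach, with one of 133.

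**Figure D3:**
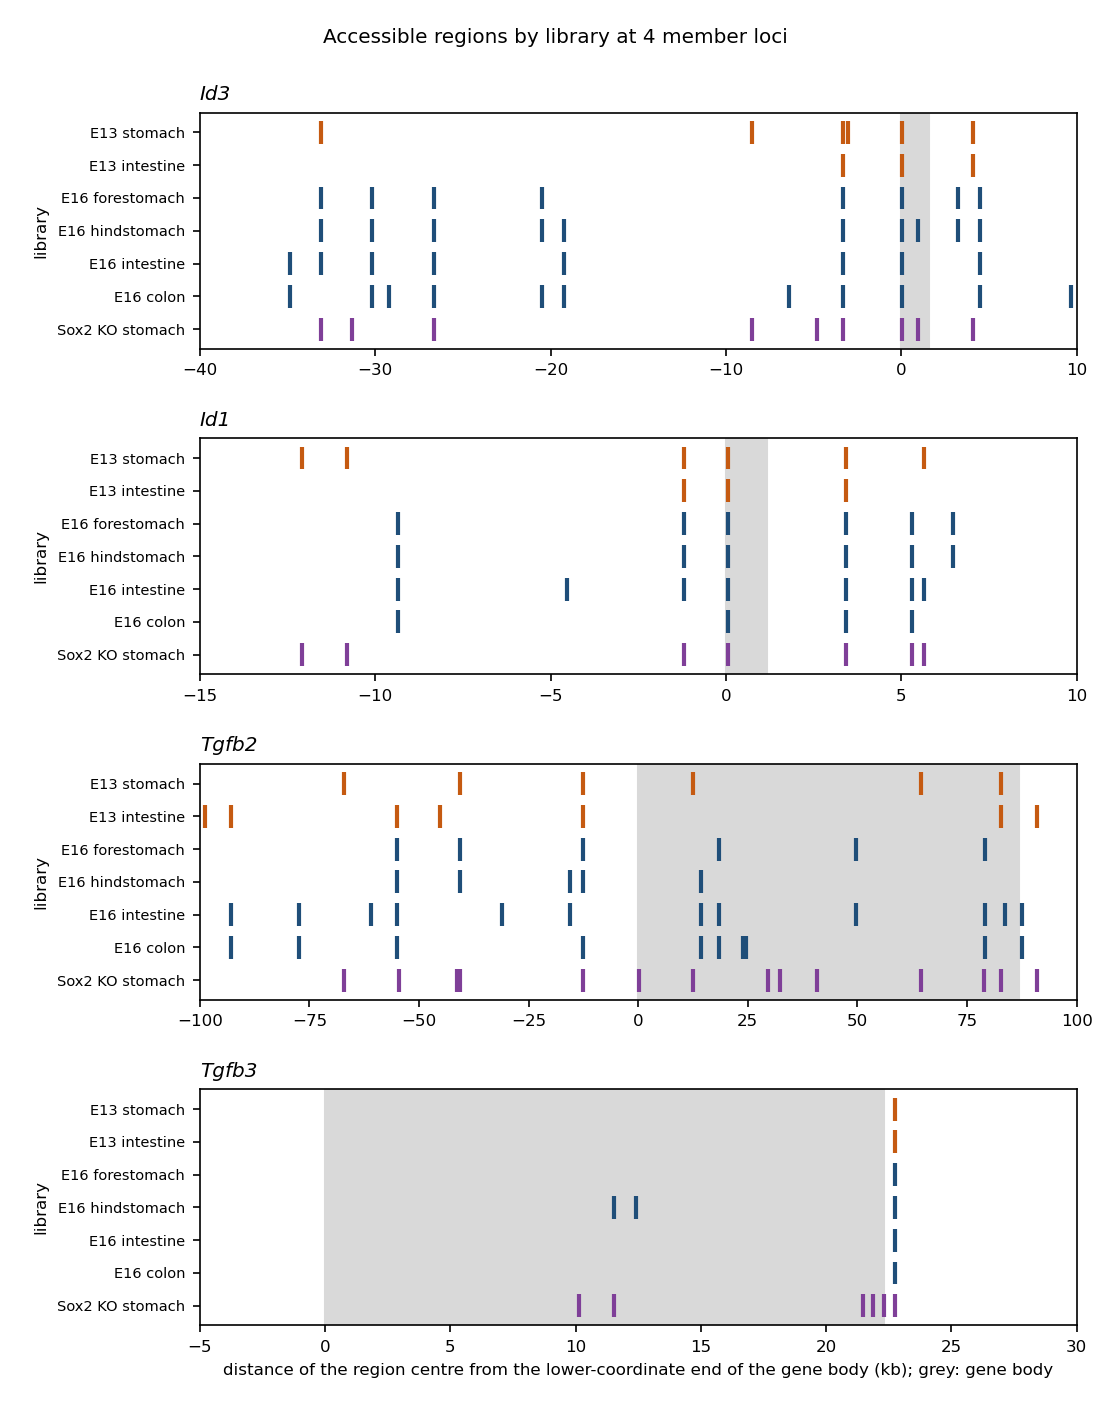
Positions of accessible regions at Id3, Id1, Tgfb2 and Tgfb3 in the 7 libraries (rows); each tick is the centre of a region where that library had a peak, orange for E13, blue for wild-type E16 and purple for the Sox2 KO stomach, grey is the gene body, and the axis is the distance in kb from its lower-coordinate end. Tick width does not show region width. Just to the right of Id3, and about 10 kb to the left of Id1, ticks of the wild-type E16 libraries lie beside ticks of the E13 stomach and Sox2 KO libraries.

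Regions were also sorted by the stages at which they had peaks. The stage classes hold some of the regions named above but not all, and they do not count neighbouring pairs. At 21 members, 35 regions had peaks in all 4 wild-type E16 libraries and in neither E13 library (3.12% of member regions, 3.52% over all genes). The widest lay 2.24 kb from Smad5 (chr13:56744615-56745675), 15.8 kb from Gdf6 (chr4:9827944-9828591) and 32.7 kb from Tgfbr2 (chr9:116208066-116208623). At 17 members, 27 regions had peaks in both E13 libraries and no wild-type E16 library (2.41%, and 2.41% over all genes), among them 5 of Tgfbr3 and 4 of Smad6. By organ, 93 regions at 31 members had peaks in both stomach parts and neither E16 intestine nor colon (8.29% against 6.12%), and 41 at 25 members had the reverse (3.65% against 4.08%).

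A peak at the gene start was scored where it overlapped the 300-base window, or any window of a gene with several listed starts. Bmpr1b and Smad5 have 3 windows and Tgfbr1 has 2. Bmpr1b was thus scored in E13 intestine, where peaks covered 0 of the 250 bases shown. It was present at 21, 18, 15, 16, 13, 11 and 22 of 27 members, in the library order given, or 77.8%, 66.7%, 55.6%, 59.3%, 48.1%, 40.7% and 81.5%. Over 17274 genes the shares were 59.9%, 56.6%, 50.4%, 54.1%, 47.3%, 43.4% and 64.3%. The member intervals were 59.2% to 89.4% in E13 stomach and 63.3% to 91.8% in the Sox2 KO stomach, and in each of the 7 libraries the interval included the all-gene share. The order of libraries among members was that of all genes. Acvr2a, Acvr2b, Tgfbr1, Tgfbr2, Smad1, Smad3, Id2, Id3 and Id4 had a start peak in all 7 libraries. Acvr1, Bmp5 and Gdf11 had one in E13 stomach and the Sox2 KO stomach only, Tgfb1 in the Sox2 KO stomach only, and Chrd in both E13 libraries and the Sox2 KO stomach. Grem1 had one in these 3 libraries and in forestomach, with the nearest peak 18 bases from the window in hindstomach and 55 in colon, so a small shift would change those calls. At Acvr1 and Chrd the start regions were assigned to another gene, since each region went to a single gene. They are therefore not among the regions counted for Acvr1 and Chrd.

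Other gaps were narrower. Bmpr1a lacked a start peak in forestomach alone, where the nearest peak was 11479 bases from the window, and the start region chr14:34502385-34503371 was present in the other 6 libraries. Acvr1b lacked one in E16 intestine alone, with the nearest peak 7878 bases away. Inhba, Smad5 and Smad6 lacked one in colon alone; at Smad5 the nearest colon peak was 43 bases away, so that call too rests on a small distance. Bmpr1b lacked one in E16 intestine and colon, and Smad9 in forestomach, E16 intestine and colon. Bmp4, Bmp6, Bmpr2, Inhbb and Tgfb2 had none in any library at the listed start, though Bmp6 and Bmpr2 had peaks 222 to 281 and 302 to 434 bases away in every library. The nearest peak to the Tgfb2 window was 50 bases away, in E16 intestine, and that to the Inhbb window 54 bases away, in the Sox2 KO stomach. The listed windows of Tgfb2, Inhba and Chrd, like that shown for Bmpr1b, lie more than 1 kb inside the gene body. Just upstream of the Tgfb2 gene body, E16 intestine and colon had peaks of 685 and 878 bases. Inhba had no peak within 1 kb of either gene end in any library. For the 15 members with no listed window, peaks within 1 kb of either gene end were counted with the rest: these were present at 37, 35, 30, 36, 33, 27 and 39 of 42 members in the order above, against 65.2%, 62.4%, 57.6%, 62.2%, 55.7%, 54.6% and 68.6% of all genes.

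**Figure D4:**
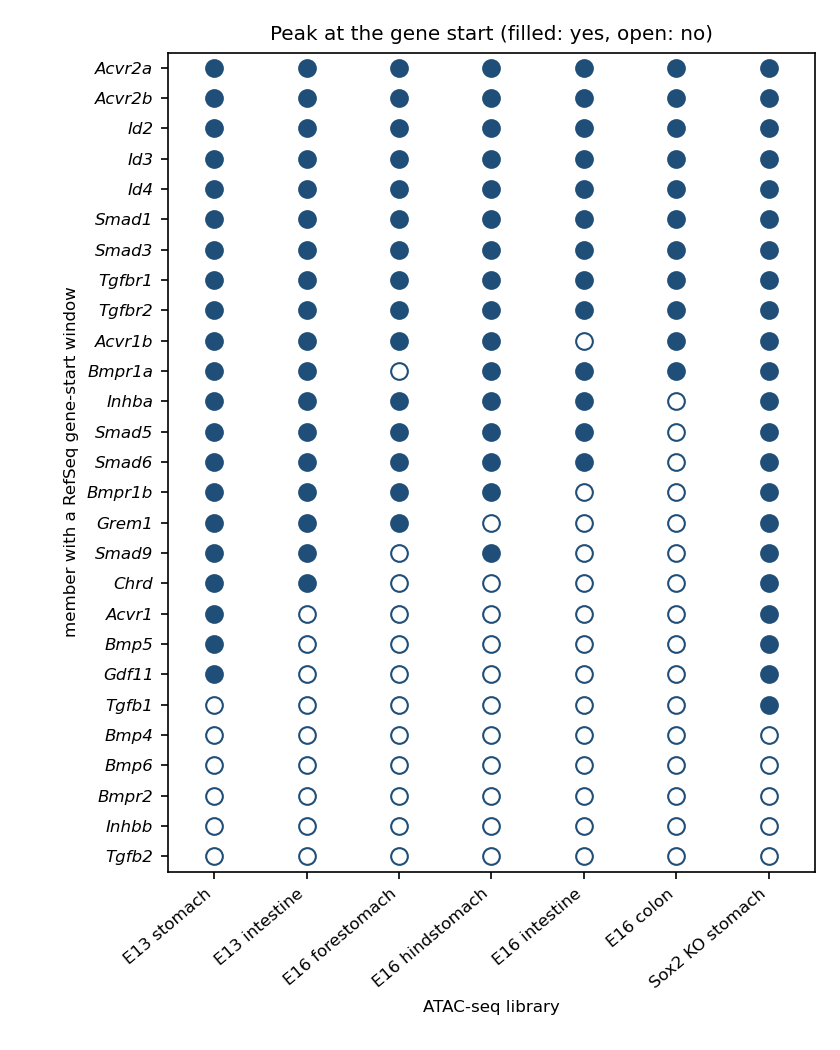
Presence (filled) or absence (open) of a peak in the 300-base start window of the 27 members with a RefSeq entry (rows, ordered by number of libraries) in the 7 libraries (columns). Where several starts are listed, a peak in any of their windows counts. The upper 9 rows are filled throughout, the lowest 5 are open throughout, and the Sox2 KO stomach column is filled for 22 of 27 members.

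The Sox2 KO stomach had the largest share of its gene regions at members, 478 regions or 0.510% (0.466 to 0.558). The other libraries had between 0.387% in colon and 0.441% in hindstomach, and the intervals of hindstomach (0.400 to 0.485), forestomach (0.394 to 0.490), E13 stomach (0.382 to 0.473) and E13 intestine (0.3698 to 0.4709) overlapped that of the Sox2 KO stomach. Against hindstomach, the Sox2 KO stomach held 258 unshared member regions and hindstomach 191, a share of 57.5% (52.8 to 62.0) where all genes gave 50.3%. Against forestomach the counts were 303 and 145, 67.6% (63.2 to 71.8) against 61.2%. Against E13 stomach they were 235 and 88, 72.8% (67.7 to 77.3) against 61.4%. With lists of equal length these were 59.5% (54.1 to 64.6), 59.2% (54.0 to 64.2) and 67.4% (61.2 to 73.0), against 52.6%, 52.7% and 55.6% over all genes, each interval above the all-gene value. Mesenchymal marker ends were also most often open in this library (9 of 12 genes), as were gene ends over all genes (68.6%). The part of the marker genes' cells in these differences was not tested.

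Of 42 members, 12 were called towards the Sox2 KO stomach and 5 towards hindstomach (all genes 18.1% and 18.2%). Against forestomach it was 22 and 3 of 42 (all genes 31.8% and 9.49%), and against E13 stomach 23 and 2 of 41 (all genes 31.6% and 11.4%). These 3 comparisons share the Sox2 KO library, so their lists are not independent. Among genes with at least 10 regions, 9 of 35 members (25.7%) were called towards the Sox2 KO stomach and 11.4% towards hindstomach, against 21.4% and 24.0% of genes. Against forestomach these were 19 (54.3%) and 5.71%, where genes gave 40.0% and 12.1%, and against E13 stomach 21 of 35 and 5.71%, where genes gave 41.6% and 15.0%.

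Of the 5 ligands of the TGF-beta and activin branch, 4 were called towards the Sox2 KO stomach and 1 away from it in each comparison. Over all genes, 18.1%, 31.8% and 31.6% were called towards it against hindstomach, forestomach and E13 stomach, and 18.2%, 9.49% and 11.4% away. Without regions within 1 kb of a gene end, Tgfb1, Tgfb3 and Inhbb did not meet the call rule against hindstomach, whereas Tgfb2 did. As a group they had 27 regions in the Sox2 KO stomach only and 12 in hindstomach only, 31 and 10 against forestomach, and 24 and 4 against E13 stomach. Tgfb2 had 12 and 3 against hindstomach, 12 and 4 against forestomach, and 8 and 0 against E13 stomach. Inhbb had 8 and 3, 9 and 3, and 6 and 0 in the same comparisons, and Tgfb3 had 4 and 1, 5 and 0, and 5 and 0. Tgfb1 had 3 and 0, 4 and 0, and 4 and 0. Inhba went the other way in all 3, with 0 and 5, 1 and 3, and 1 and 4.

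Id2, Smad1 and Smad2 were also called towards the Sox2 KO stomach. Id2 had 11 regions in the Sox2 KO stomach only and 4 in hindstomach only, 13 and 3 against forestomach, and 15 and 2 against E13 stomach. Smad1 had 9 and 3, 9 and 1, and 8 and 1, and Smad2 had 10 and 5, 13 and 4, and 12 and 4. Smad4 was on the other side in all 3, with 2 and 6, 4 and 8, and 3 and 6. Bmp7 had 13 and 5 against hindstomach and 18 and 4 against forestomach, but 10 and 6 against E13 stomach, which is no call. Bambi had 4 and 0 against hindstomach and 4 and 1 against forestomach. Bmpr1a (2 and 4), Bmpr2 (2 and 5) and Bmp1 (1 and 3) were called towards hindstomach.

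Not all of these calls held when lists were cut to the same length. Against hindstomach 8 of 12 remained, namely Bmp7, Tgfb2, Tgfb3, Inhbb, Smad1, Smad7, Bambi and Id2, and Gdf5, Tgfb1, Chrd and Smad2 did not. Towards hindstomach Inhba, Bmpr1a, Bmpr2 and Smad4 remained and Bmp1 did not. Against forestomach 15 of 22, without Tgfb2, and all 3, and against E13 stomach 19 of 23 and both, remained.

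Of the 251 member regions with a peak in both stomach parts, 165 also had a Sox2 KO peak (65.7%, 59.7 to 71.3), against 62.6% over all genes. E13 stomach had a peak in 53.4% of them, against 54.3%. At gene ends 35 of 39 such regions had a Sox2 KO peak (89.7%) and away from them 130 of 212 (61.3%, 54.6 to 67.6), against 93.0% and 53.5% over all genes. Conversely, neither stomach part had a peak in 248 of the 478 Sox2 KO member regions. Among them, 78 (31.5%) had a peak in E13 stomach, 42 (16.9%) in E13 intestine and 13 (5.24%) in E16 intestine or colon, against 32.5%, 19.7% and 8.45% over all genes; a region can count under several of these. No other library had a peak in 153 (61.7%, 55.5 to 67.5), against 57.8%.

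The share of regions with a Sox2 KO peak differed widely between classes of wild-type peaks. Of the 27 member regions seen in both E13 libraries and no wild-type E16 library, 21 had a Sox2 KO peak (77.8%, 59.2 to 89.4; all genes 72.6%). Of the 35 seen in all 4 wild-type E16 libraries and neither E13 library, 7 did (interval 10.0% to 35.9%; all genes 9.25%). These 7 lay at Tgfbr2, Tgfbr3, with 2, Acvr1b, Smad7, Id3 and Id1. Of the 108 regions seen in E13 stomach, not in E13 intestine and in no wild-type E16 library, 48 had a Sox2 KO peak (44.4%, 35.4 to 53.8), above the 30.1% of all genes, and of the 63 seen in E13 intestine in the same way 13 did (20.6%, 12.5 to 32.2; all genes 12.9%). Of the 93 regions of both stomach parts but not E16 intestine or colon, 55 did (59.1%, 49.0 to 68.6; all genes 59.9%), and of the 41 regions of E16 intestine and colon only 1 did (2.44%, 0.432 to 12.6; all genes 5.67%).

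**Figure D5:**
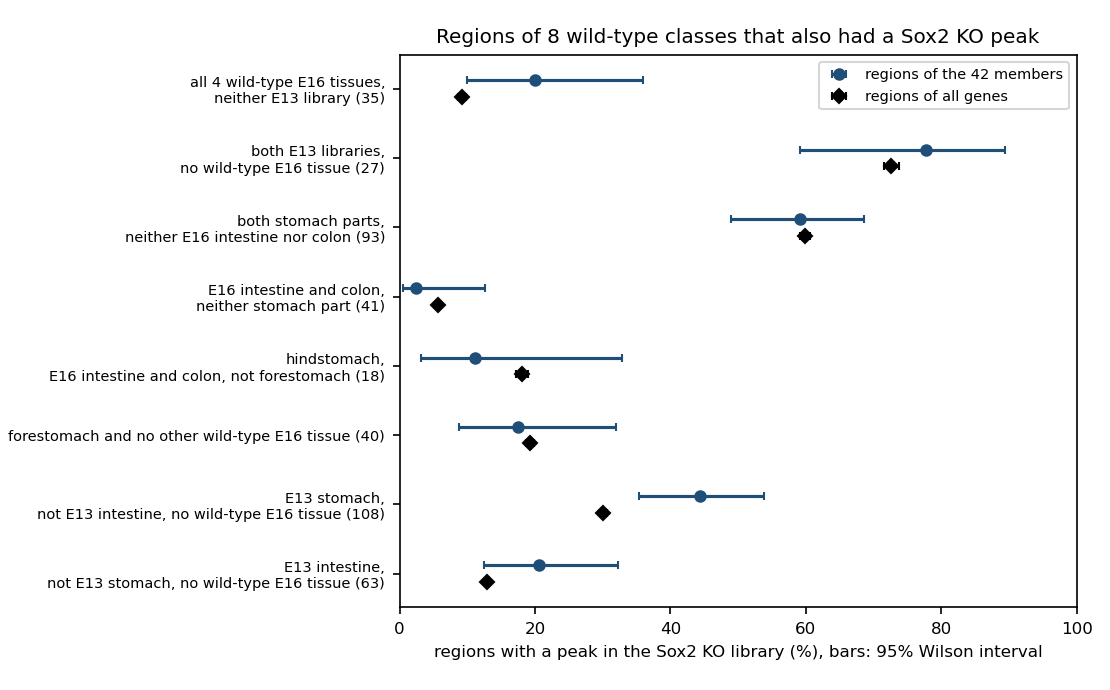
Percent of regions with a peak in the Sox2 KO library for 8 classes of wild-type peaks (number of member regions in brackets), for the members (circles) and all genes (diamonds); bars are 95% Wilson intervals. Regions of both E13 libraries lie at 77.8% and those of all 4 wild-type E16 libraries at 7 of 35 regions for members, and the intervals of the latter class and of the E13 stomach class (108 regions) lie above the all-gene values.

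The other genes of the pathway were counted from a list of 56, all found in the annotation, that holds further ligands, receptors, antagonists, latent TGF-beta binding proteins and SMAD regulators. Their calls stand beside all genes only, and were not checked among genes with at least 10 regions or with lists of equal length. At E13, 17 of 45 with an unshared region were called towards stomach and 2 towards intestine, where all genes gave 27.3% and 8.0%. At E16, 18 of 49 were called towards hindstomach and 6 towards intestine (all genes 27.1% and 9.72%). Between the Sox2 KO stomach and E13 stomach, 21 of 50 were called towards the former and 3 towards the latter (all genes 31.6% and 11.4%), with 68.8% (62.6 to 74.3) of unshared regions in the former against 61.4% over all genes. Against forestomach it was 24 and 1 of 48 (all genes 31.8% and 9.49%), with 64.7% (59.4 to 69.6) against 61.2%. Against hindstomach 15 and 3 of 49 were called (all genes 18.1% and 18.2%), with 54.7% (49.5 to 59.8), an interval that includes the all-gene value of 50.3%. Pmepa1, a TGF-beta target that limits the signal, had 14 regions in the Sox2 KO stomach only and 7 in hindstomach only, 19 and 7 against forestomach, and 14 and 2 against E13 stomach. The largest excess on the wild-type side was at Ltbp1, a latent TGF-beta binding protein, with 10 and 18, and at Bmper, an extracellular BMP regulator, with 9 and 17, both against hindstomach. Against forestomach it was again at Ltbp1, with 10 and 15, and against E13 stomach at Dcn (decorin, which binds TGF-beta), with 1 and 6. Zfyve9, which brings SMAD2 to the receptor, followed with 0 and 7, 1 and 4, and 0 and 4.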

How the data were processed

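ATAC-seq peaks were analysed from 7 libraries, 1 for each of 7 groups. The tools named are cutadapt, Bowtie2 and MACS2 and the build is GRCm38/mm10, per the submitters' processing notes; versions and thresholds are not known here. The files deposited by the authors hold peak positions, in 3 columns with chromosome, start and end, and no height, score or count, so depth is unknown and alternatives by peak strength used peak width instead. The files do not say if positions start at 0 or at 1, so they are printed as deposited. Peaks on chromosomes 1 to 19 and X that overlapped by at least 1 base were merged into regions, and a region went to its nearest protein-coding gene, measured to the gene body and at most 100 kb away (RefSeq, GRCm38.p6). Gene starts came from the RefSeq promoter table, in which 27 members matched and 15 were not matched. Pairs of libraries were compared by regions held by one only (call: an excess of at least 2 and at least 2 times), with no test, since each group has 1 library. The members, lists and comparisons were chosen with earlier results of these data known. All 42 members are described, with values in every library for those called in at least 2 pairs, with a start peak in some libraries but not all, among the 5 with the most or fewest regions, or Id genes; regions are named widest first, at most 3 a pattern. Other pathway genes are given as counts, with examples from the 3 largest excesses in each direction. Scripts used Python 3.11.15, numpy 2.4.6, pandas 2.3.3, scipy 1.17.1 and matplotlib 3.10.9, and were tested on simulated data.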

Additional observations from a re-analysis of the deposited data

Results flagged for a closer look

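At 4 members the balance between stages went one way in intestine and the other way in stomach. The difference was not tested, each value is a count from 1 library, and the net count given is the regions seen at E16 only minus those seen at E13 only, in intestine minus in stomach. Against hindstomach, Acvr1b, a type I activin receptor, had 2 regions in E16 intestine only and 5 in E13 intestine only, and 9 in hindstomach only and 4 in E13 stomach only, a net count of -8. Acvr2a, a type II activin receptor, had 4 and 1 in intestine, and 1 and 3 in stomach, a net count of 5. With forestomach as the E16 stomach, Bmp7 had 7 and 2 in intestine, and 4 and 14 in stomach, a net count of 15. Bmp6 had 4 and 2, and 2 and 5, and Acvr2a 4 and 1, and 2 and 4, a net count of 5 each. The stomach calls of Acvr1b and Bmp6 did not remain with lists of equal length. Only Acvr2a had opposite calls with hindstomach and also with forestomach as the E16 stomach. The share of all genes with opposite calls was not computed, so whether 4 members is an unusual count cannot be told.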

How the results depend on the processing

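No paired analysis was possible because each group has 1 library, and no library could be left out. The nearest gene start and equal list length moved the most values. With the 81179 widest peaks of each list, the share of unshared member regions in the first library moved to 55.8% (E13 stomach against E13 intestine), 49.5% (forestomach against hindstomach), 56.4% (hindstomach against E16 intestine), 51.1% (E16 intestine against E13 intestine), 53.2% (hindstomach against E13 stomach), 59.2% (Sox2 KO stomach against forestomach) and 67.4% (Sox2 KO stomach against E13 stomach). It reversed to 51.1% for E16 intestine against colon, and Tgfbr2, called towards colon, was called towards intestine (1 call). Assigning regions to the nearest gene start, possible for 27 members only, gave 68.2% for hindstomach against E16 intestine and 30.3% for E16 intestine against colon. It lowered the percent of gene regions at members to 0.330, 0.291, 0.330, 0.324, 0.261, 0.302 and 0.374 in the library order of the report, since fewer members were counted. With a limit of 50 kb the percent moved to 0.358 in E16 intestine and 0.338 in colon. Requiring peaks over at least 50% of the window left start peaks at 7 members in forestomach, 8 in hindstomach, 7 in the intestine of E16 and 4 in colon, and 1 kb on either side of the start gave 20 in E16 intestine. Counts of called members moved by over 1.5 times mainly at equal list length: from 18 to 11 towards the first library and from 4 to 8 towards the second for E13 stomach against E13 intestine, from 2 to 10 and 22 to 8 for forestomach against hindstomach, from 16 to 10 and 4 to 7 for hindstomach against E16 intestine, and from 19 to 5 towards colon. They moved from 5 to 8 towards E13 intestine against E16 intestine, from 15 to 9 and 3 to 6 for hindstomach against E13 stomach, from 5 to 9 and 10 to 6 for forestomach against E13 stomach, and from 2 to 6 towards E13 stomach against the Sox2 KO stomach. By gene start, 12 were called towards hindstomach against forestomach, 8 towards E16 against E13 intestine, 5 towards hindstomach against E13 stomach, 3 and 6 for forestomach against E13 stomach, and 15 towards the Sox2 KO stomach against E13 stomach. The 17 other counts that moved this far, under gene starts or the remaining settings, had a main count of 10 or less and moved by 1 to 4 members. Of 206 calls, 198 were kept with regions from the 2 lists only, 194 with peaks covering at least 25% of a region, 186 within 50 kb, 183 away from gene ends, 162 with an excess of at least 3, 134 at equal list length and 109 by gene start. The share of stomach regions with a Sox2 KO peak lay between 61.3% and 68.2% over its alternatives. The stage classes were added after seeing the data: with a Sox2 KO peak were 14.8% to 21.9% of the E16 class and 70.0% to 75.0% of the E13 class.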
